A study of Mus musculus with 12 samples.

Results

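The 7 genes Srd5a1, Srd5a2, Esr1, Esr2, Nr3c1, Nr3c2 and Pgr encode steroid receptors and steroid 5-alpha reductases. They were chosen by gene name, by a rule that did not use their values, though with earlier results of these data known. They came from the 22021 genes of a transcriptome table of mouse caput epididymidis at 13 months, and took 8 of its 28344 transcript rows because Esr2 had 2. The table compared 1 library of wild-type C57BL/6 mice (WT) with 1 library of Gpx5-/- mice (KO) on the same strain background, and Gpx5 encodes a glutathione peroxidase secreted by the epididymis. Each library was made from tissue pooled over 7 mice aged 13 months, from which sperm had been let out by puncture in buffer. Small RNAs were also sequenced from the caput, corpus, cauda and testis of WT and KO mice at 13 months and from caput at 2 months, with 1 library per group. With 1 pooled library per group, no difference between genotypes had a replicate check, and no test between genotypes was made.

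The epididymis is the duct in which sperm mature, and its first region, the caput, secretes most of the proteins that act on them. The duct depends on androgen: the 5-alpha reductases turn testosterone into dihydrotestosterone, the more potent androgen, and the epididymis expresses both Srd5a1 and Srd5a2. The nuclear steroid receptors are transcription factors that are held by heat shock protein chaperones until their hormone binds. Esr1 and Esr2 are the oestrogen receptors, Nr3c1 the glucocorticoid receptor, Nr3c2 the mineralocorticoid receptor and Pgr the progesterone receptor.

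Before the members, the libraries themselves: the read totals in the table's header were 14348655 for WT and 13929327 for KO. The RPKM (reads per kilobase of transcript, scaled to a common library total) of Gpx5 was 8474 in WT and 917.9 in KO, a difference of -3.21 on log2(RPKM + 1). The Gpx5 transcript was thus lower in the library labelled KO, but its level there still lay above 99.7% of genes. The secretory genes that define the caput were high in both libraries, with a summed level of 14025 RPKM in WT and 32484 RPKM in KO over the 18 listed genes. Markers of testicular cells stood apart between the libraries. All 15 spermatid and sperm markers were called lower in KO (by the threshold given below), their summed level falling from 11952 to 175.6 RPKM. All 10 spermatocyte markers were also lower, from 591.6 to 10.61 RPKM in sum. All 6 Leydig cell markers were lower as well, from 362.3 to 11.83 RPKM in sum. In bulk tissue, fewer cells of a type and less RNA per cell cannot be told apart. How RNA of testicular cells came to be in libraries of caput was not tested. The part of these markers in the values below was also not tested beyond the centring given with them.

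**Figure D1:**
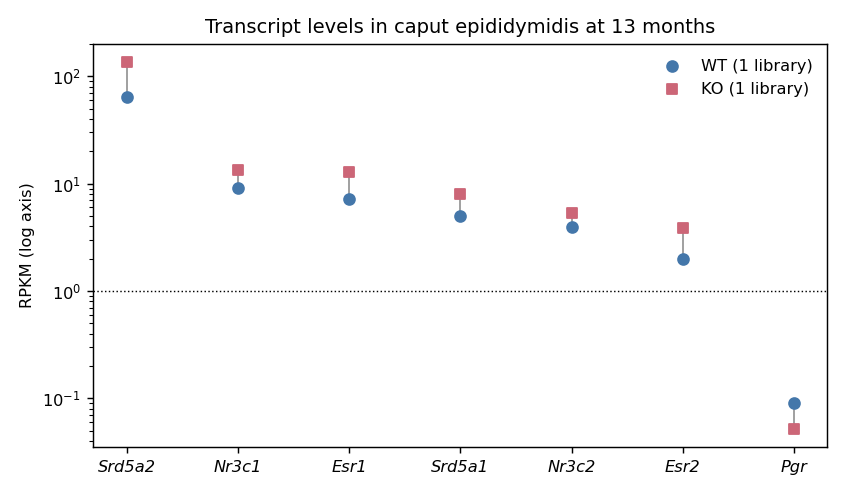
Level of each of the 7 genes in RPKM (vertical log axis) in the WT library (circles) and the KO library (squares), 1 library each, with a dotted line at 1 RPKM. Srd5a2 lies highest in both libraries, at 63.6 and 135 RPKM, and Pgr lies below 0.1 RPKM in both.

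Among the 7 genes, Srd5a2 rose past 2-fold in KO, and no member fell past it. A gene was tested when it reached at least 1 RPKM in a library, and the threshold for a call was a difference of 1 or more on log2(RPKM + 1). Of the 7 genes 6 were tested, and Pgr, below 1 RPKM in both libraries, was not. Of the 6, 1 was called higher and 0 were called lower, while 2.77% of the 15000 genes tested in the whole table were called higher and 22.1% lower. When all differences were centred on the caput secretory genes, as described below, the counts over all genes changed from 415 higher and 3321 lower to 8 higher and 7604 lower. The reads behind each value were recovered as whole numbers from the deposited values, and ratios of reads per library total carry exact conditional binomial intervals at 95%. Such intervals cover counting error only, not differences between mice or between library preparations. By that interval the KO level was above the WT level for all 6 tested members, against 38.3% of the 14313 genes with recovered reads that were above 1 and 38.2% that were below 1.

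The 5-alpha reductases are described first. Srd5a2, which encodes the type 2 enzyme, had 63.6 RPKM in WT and 135 RPKM in KO, from 779 and 1608 reads on a transcript of 854 nt. The KO value was the higher, with a ratio of 2.13 (95% counting interval 1.95 to 2.32) and a difference of 1.08 on log2(RPKM + 1). Of all genes tested, 1.84% had a difference as large or larger, and the Srd5a2 level lay above 95.5% of genes in WT and 98.3% in KO. Srd5a1, which encodes the type 1 enzyme, had 4.995 RPKM in WT and 8.055 RPKM in KO, from 191 and 299 reads on 2665 nt. Its ratio of 1.61 (1.34 to 1.94) was above 1 by counting but did not reach 2-fold, and 16.6% of genes tested had as large a difference. Srd5a3, a related reductase that serves protein glycosylation and is not among the 7 genes, had 3.546 RPKM in WT and 4.87 RPKM in KO, with a ratio of 1.37 (1.04 to 1.83).

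Srd5a2 was thus the predominant 5-alpha reductase transcript in both libraries. Per length, its level was 12.7 times that of Srd5a1 in WT (10.9 to 15.0) and 16.8 times in KO (14.8 to 19.1). The change of this ratio between libraries was 1.32 (1.07 to 1.62), so by counting error alone Srd5a2 differed between the libraries by more than Srd5a1. Against Srd5a3, the Srd5a2 level was 17.9 times as high in WT and 27.8 times as high in KO. By the authors' deposited table, log2 fold changes were 1.16 for Srd5a2, 0.76 for Srd5a1 and 0.52 for Srd5a3. Those values use another scaling, which gives 0.114 to transcripts at 0 in both libraries, so they lie above the log2 ratios of RPKM. The GFOLD score of the authors' deposited table, a cautious log2 fold change, was 1.01 for Srd5a2 and 0.45 for Srd5a1.

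The promoters of this pair of reductases are shown because the enzymes catalyse the same reaction and their transcripts differed 12.7-fold in level in WT. The 250 bases before each RefSeq start are printed 5' to 3' on the gene's own strand (GRCm38.p6, minus strand, chr17:74047861-74048110 for Srd5a2 and chr13:69611464-69611713 for Srd5a1). Capitals mark matches to the GC box CCGCCC on either strand.
Srd5a2: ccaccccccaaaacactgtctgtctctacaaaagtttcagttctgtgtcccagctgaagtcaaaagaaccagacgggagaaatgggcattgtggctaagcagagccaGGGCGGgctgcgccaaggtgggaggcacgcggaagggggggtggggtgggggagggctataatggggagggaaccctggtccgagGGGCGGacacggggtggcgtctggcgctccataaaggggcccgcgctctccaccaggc
Srd5a1: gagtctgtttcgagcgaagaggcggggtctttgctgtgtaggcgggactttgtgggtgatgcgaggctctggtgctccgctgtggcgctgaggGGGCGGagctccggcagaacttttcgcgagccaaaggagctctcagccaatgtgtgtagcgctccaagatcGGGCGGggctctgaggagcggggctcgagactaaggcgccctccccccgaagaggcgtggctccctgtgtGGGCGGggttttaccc
The Srd5a2 window held 2 GC boxes and the Srd5a1 window 3, and 32.7% of 32851 promoter windows of that length held at least 1. The windows held 12 CpG dinucleotides for Srd5a2 and 20 for Srd5a1, against a median of 6 over all windows, and their GC content was 63.2% and 64.8%. Neither window held the TATA box TATAAA (12.4% of windows), the ETS-type motif AGGAAG (29.5%) or AGAACA, an arm of the glucocorticoid response element (16.1%). Neither held AGGTCA, an arm of the oestrogen response element (14.02%). Both strands were searched, and none of these motifs contains another. These matches describe letters in the windows and say nothing of which factors were bound. The windows thus shared GC boxes and a high CpG content, as do many other promoters.

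The oestrogen receptors were both higher in KO by counting and below 2-fold by the ratio of RPKM. Esr1, the receptor that in the efferent ducts and epididymis serves fluid resorption, had 7.132 RPKM in WT and 12.77 RPKM in KO, from 442 and 768 reads on 4319 nt. Its ratio was 1.79 (1.59 to 2.02), and 9.05% of genes tested had as large a difference on log2(RPKM + 1), which was 0.76. Esr2 had 1.969 RPKM in WT and 3.822 RPKM in KO by its transcript NM_207707, from 95 and 179 reads. Its ratio of 1.94 (1.51 to 2.52) was above that of Esr1, but the difference on log2(RPKM + 1) was smaller, at 0.70, because the added 1 weighs more on a low level. The second Esr2 transcript, NM_010157, had 1.959 and 3.82 RPKM from 93 and 176 reads. The rows for both Esr2 transcripts share nearly all their sequence and so are not separate measurements.

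Esr1 was the more abundant oestrogen receptor, with a level per length 3.62 times that of Esr2 in WT (2.9 to 4.57) and 3.34 times in KO (2.83 to 3.95). The change of this ratio between libraries was 0.922, with an interval of 0.692 to 1.22 that includes 1. A difference between the receptors in their change was therefore not detectable at this depth. By the authors' deposited table, log2 fold changes were 0.91 for Esr1 and 1.02 for Esr2 (NM_207707), with GFOLD scores of 0.71 and 0.60. On that table's own scaling, described above for the reductases, Esr2 was thus past 2-fold, while by its RPKM ratio it was not.

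The corticosteroid receptors had the smallest ratios among the 6 tested members. Nr3c1, the glucocorticoid receptor, had 9.085 RPKM in WT and 13.41 RPKM in KO, from 825 and 1182 reads on 6329 nt. Its ratio was 1.48 (1.35 to 1.62), and 21.3% of genes tested had as large a difference, which was 0.51 on log2(RPKM + 1). Nr3c2, the mineralocorticoid receptor, which also binds glucocorticoids, had 3.905 RPKM in WT and 5.34 RPKM in KO, from 229 and 304 reads. Its ratio was 1.37 (1.15 to 1.63), and 30.3% of genes tested had as large a difference, so this gene lay within the common range of the table. The Nr3c1 level per length was 2.33 times that of Nr3c2 in WT and 2.51 times in KO, and the change between libraries was 1.08 (0.885 to 1.31).

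Pgr, the progesterone receptor, was close to undetected. It had 0.091 RPKM in WT and 0.0521 RPKM in KO, from 9 and 5 reads on a transcript of 6889 nt. The ratio of 0.572 had an interval of 0.151 to 1.9, so a difference in either direction was not detectable at this depth.

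**Figure D2:**
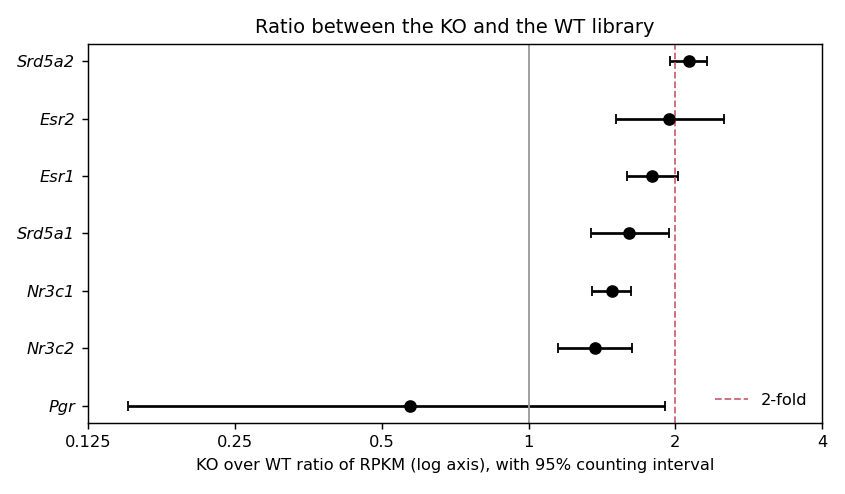
Ratio of the KO to the WT level for each of the 7 genes (horizontal log axis), with the 95% counting interval as bars, a solid line at 1 and a dashed line at 2-fold. The intervals of 6 genes lie above 1, that of Srd5a2 is centred at 2.13, and that of Pgr runs from 0.151 to 1.9 across 1.

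The order of the levels per length was the same in both libraries: Srd5a2, Nr3c1, Esr1, Srd5a1, Nr3c2, Esr2 and Pgr, from high to low. Srd5a2 stood well apart at the top, with 7.0 times the Nr3c1 level in WT (6.34 to 7.73) and 10.1 times in KO (9.35 to 10.9). Nr3c1 was 1.27 times Esr1 in WT (1.13 to 1.43), but in KO the ratio was 1.05 (0.958 to 1.15), so those neighbours were not separated by counting there. Below them the steps were small but each was outside counting error in both libraries. Esr1 was 1.43 times Srd5a1 in WT (1.2 to 1.7) and 1.58 times in KO (1.38 to 1.82). Srd5a1 was 1.28 times Nr3c2 in WT (1.05 to 1.56) and 1.51 times in KO (1.28 to 1.78). Nr3c2 was 1.98 times Esr2 in WT (1.55 to 2.55) and 1.4 times in KO (1.16 to 1.69). The last step was the widest on the ratio scale, with wide intervals because of the few Pgr reads. Esr2 was 21.6 times Pgr in WT (10.9 to 48.7) and 73.4 times in KO (30.9 to 229).

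Some pairs also differed in how much they differed between the libraries. Srd5a2 exceeded Nr3c1 in its KO over WT ratio by a factor of 1.44 (1.27 to 1.63), and Nr3c2 by a factor of 1.55 (1.28 to 1.89). Against Esr1 the factor was 1.19 (1.02 to 1.38), and against Esr2 it was 1.1 (0.833 to 1.43), an interval that includes 1. The KO over WT ratios of Srd5a2 and Esr2 were thus not separated by counting. Among the receptors, the corticosteroid receptors had smaller ratios than the oestrogen receptors in 3 of the pairs computed. Nr3c1 over Esr1 gave 0.825 (0.71 to 0.958), and Nr3c2 over Esr2 gave 0.705 (0.514 to 0.963). Esr1 over Nr3c2 gave 1.31 (1.06 to 1.62). These are factors among 15 pairs computed, with intervals for counting error that were not adjusted for their number.

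How high the members stand in KO depends on what the libraries are compared by. The median difference over all 15000 genes tested was 0.05 on log2(RPKM + 1), and centring on it left Srd5a2 at 1.03. The median of the caput secretory genes was 1.06, and centring on it left Srd5a2 at 0.01 and put the other 5 tested members below 0, from -0.30 for Esr1 to -0.69 for Nr3c2. Between these lay the medians of the other somatic lists used for centring, 0.80 for basal cells, 0.69 for clear cells and 0.54 for smooth muscle and fibroblasts. Centring on the remaining lists of non-testicular cells was not run. Their medians were 0.16 for macrophages and leukocytes, 0.10 for endothelium, 1.01 for erythroid cells (3 tested) and -1.50 for fat cells (2 tested). The direction of the receptors therefore changed with the list used for centring. Centred on the smooth muscle and fibroblast genes, Srd5a2 was at 0.53, Esr1 at 0.22, Esr2 at 0.16, Srd5a1 at 0.05, Nr3c1 at -0.03 and Nr3c2 at -0.17. Centred on the basal cell genes, Srd5a2 was at 0.28 and the other 5 were below 0. Srd5a2 was above 0 under each centring that was run, but only by 0.01 with the caput secretory genes. It was past 2-fold under none of the somatic centrings. Its call as higher therefore applies to the whole libraries and not to levels relative to the lists used for centring.

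**Figure D3:**
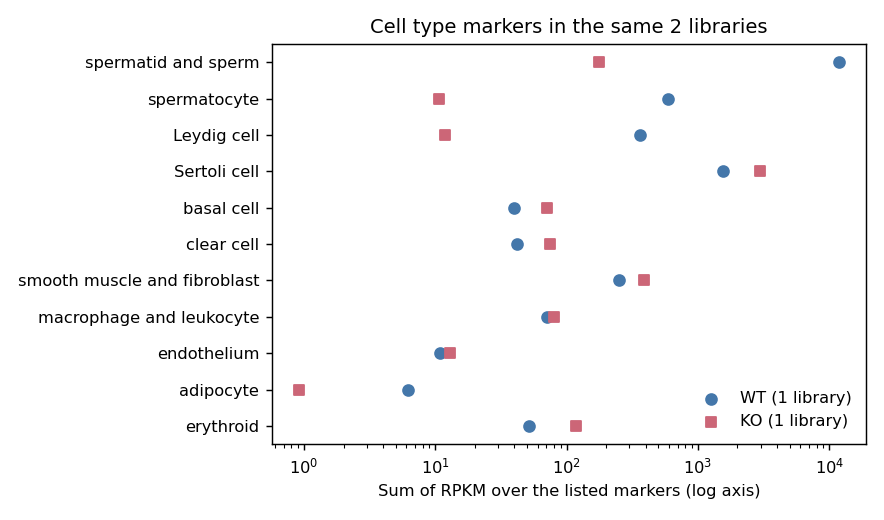
Sum of RPKM over each list of cell type markers (horizontal log axis) in the WT library (circles) and the KO library (squares). Spermatid and sperm markers sum to 11952 RPKM in WT and 175.6 in KO, while the sums for basal cells, clear cells, smooth muscle and fibroblasts are higher in KO.

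The values of those other lists are given for the cell types that may carry the receptors. Of the 6 basal cell markers 1 was called higher and 1 lower, with Krt5 at 6.969 RPKM in WT and 13.44 RPKM in KO and Krt14 at 19.06 and 32.57 RPKM. Neither Krt5 nor Krt14 was called. The marker called higher was another keratin gene, Krt15 (2.35 and 6.97 RPKM), and the one called lower was Ngfr (2.152 and 0.3588 RPKM). Krt15 and Ngfr were named after their values were seen. None of the 5 clear cell markers reached the call threshold on log2(RPKM + 1), although the plain ratio of Atp6v1g3, a proton pump subunit named after its values were seen, was 2.11. Foxi1, a transcription factor of these proton-secreting cells, had 11.78 RPKM in WT and 19.67 RPKM in KO. None of the 10 smooth muscle and fibroblast markers was called, and all 10 were above 0, with Acta2 (smooth muscle actin) at 102.7 and 151.7 RPKM and Dcn (decorin) at 46.07 and 80.11 RPKM. The stromal markers thus leaned the same way as the tested receptors, but this was not particular to stroma. Also above 0 were 5 of 6 basal cell, 4 of 5 clear cell and 18 of 18 caput secretory genes tested. The counts were 5 of 7 for macrophages and leukocytes, 3 of 4 for endothelium and 0 of 2 for fat cells. None of the 7 macrophage and leukocyte markers tested was called, with a summed level of 71.33 RPKM in WT and 80.37 RPKM in KO. The macrophage gene Cd68, also named after its values were seen, came close, with a plain ratio of 2.17 (1.63 to 2.92) and a difference of 0.98. Of 8 Sertoli cell markers tested 5 were lower, while Clu, which the caput epithelium also secretes, had 1507 RPKM in WT and 2961 RPKM in KO. Clu was therefore no guide to Sertoli cells here. The fat cell marker Adipoq had 3.903 RPKM in WT and was listed at 0 in KO. Of the 3 erythroid markers tested 2 were higher, with Hbb-b1 at 35.85 and 89.68 RPKM.

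The partners and targets of the receptors are described by lists of genes from textbook knowledge, each read against the whole table's median of 0.05 and its shares of 2.77% higher and 22.1% lower. Over the 11 lists, 137 of 172 listed genes were tested, and 15 were called higher and 16 lower. Centred on the caput secretory genes, the same 137 genes gave 0 higher and 49 lower. That list itself supplied 11 of the 15: all 18 caput secretory genes were above 0, and 11 were called higher. Among them were Lcn5, a lipocalin of the epididymal fluid (770.3 RPKM in WT, 2294 RPKM in KO), and Adam7 (2383 and 6373 RPKM). The beta-defensin-like Spag11b had 3007 RPKM in WT and 7241 RPKM in KO.

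**Figure D4:**
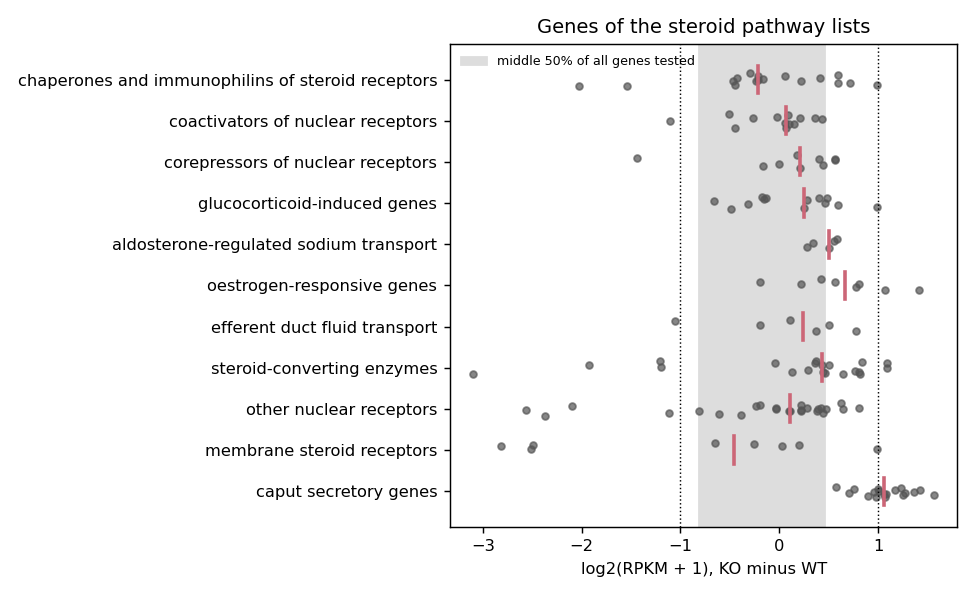
Difference on log2(RPKM + 1), KO minus WT, for each tested gene (points) of 11 gene lists, with the list median (vertical bar), the middle 50% of all genes tested (grey) and dotted lines at 2-fold. The caput secretory genes lie farthest to the right with a median of 1.06, and the oestrogen-responsive genes have a median of 0.67.

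The oestrogen-responsive list had the highest median of the receptor target lists, at 0.67. The medians of the basal cell, clear cell, and smooth muscle and fibroblast markers were 0.80, 0.69 and 0.54. Of its 8 tested genes 2 were called higher and 0 lower, and its summed level was 97.26 RPKM in WT and 172.6 RPKM in KO. Both called genes are ones that other signals also induce. Ccnd1 (cyclin D1) had 16.84 RPKM in WT and 36.35 RPKM in KO, a ratio of 2.16 (1.99 to 2.34). Stc2, a secreted stanniocalcin, had 1.905 and 6.727 RPKM, a ratio of 3.53 (2.56 to 4.96). Greb1, a classic target of Esr1, had 7.35 and 13.31 RPKM. Xbp1, a regulator of the secretory pathway, had 47.7 and 84.16 RPKM, and neither gene reached 2-fold. With 5 in place of 1 added to each RPKM, the count called higher in this list went from 2 to 0. Centred on the caput secretory genes, the list had 0 called higher and 1 called lower.

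In the efferent duct fluid transport list, which holds channels and exchangers under Esr1 control, 1 of 6 tested genes was called lower and 0 were called higher. With 5 in place of 1 added to each RPKM 0 were lower, and with 0.1 added 1 was higher. Car2, a carbonic anhydrase, was the lower one, at 15.34 RPKM in WT and 6.858 RPKM in KO. The water channel gene Aqp1 had 9.166 and 12.17 RPKM, and the chloride channel gene Cftr had 7.319 and 8.006 RPKM.

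For Nr3c1 and Nr3c2 the target lists held no called gene. Of 13 tested glucocorticoid-induced genes 0 were higher and 0 lower, with a median of 0.25. Fkbp5, which encodes an immunophilin that dampens the glucocorticoid receptor, came closest to the threshold, with 50.64 RPKM in WT and 101.6 RPKM in KO, a difference of 0.99. With 0.1 added in place of 1, the list had 1 gene called higher. Tsc22d3, which encodes the glucocorticoid-induced leucine zipper, had 15.03 and 21.42 RPKM, and Errfi1 had 16.21 and 24.83 RPKM. In this list 7 of the 13 tested genes were above 0 and the others were below. The metallothionein gene Mt2 was among those below, with 60.79 RPKM in WT and 42.87 RPKM in KO. Per1, named after its values were seen, was the lowest, at -0.66 on log2(RPKM + 1). Of 5 tested genes of aldosterone-regulated sodium transport 0 were called, and all 5 were above 0, with a median of 0.50. Scnn1a, the alpha subunit of the epithelial sodium channel, had 3.128 RPKM in WT and 5.049 RPKM in KO.

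Among the chaperones and immunophilins that hold the receptors, 0 of 17 were higher and 2 were lower, with a median of -0.22. Hsp90aa1 had 358.2 RPKM in WT and 86.68 RPKM in KO, while its relative Hsp90ab1 had 316.7 and 521.7 RPKM. The co-chaperone gene Dnajb1 had 54.55 and 18.11 RPKM and was the other called lower. The pair of Hsp90 genes thus differed in opposite directions, of which the Hsp90aa1 difference was called. With 0.1 added in place of 1, the list had 1 gene called higher. Of 13 tested coactivators 0 were higher and 1 was lower, Med1 (a subunit of the Mediator complex), at 19.12 and 8.347 RPKM. The count called lower was 0 with a pseudocount of 5 and 0 with the transcript of the lowest mean RPKM standing for each gene. Of 9 corepressors 0 were higher and 1 was lower, Gps2, at 17.88 and 5.943 RPKM. Nrip1, a corepressor that is also an oestrogen target, had 15.63 RPKM in WT and 23.57 RPKM in KO.

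Enzymes that make, convert or clear steroids gave calls in both directions, 2 higher and 4 lower of 20 tested, with a median of 0.43. With 5 in place of 1 added these counts were 0 higher and 1 lower, and with a filter at 5 RPKM they were 1 higher and 2 lower. Akr1c19, an aldo-keto reductase, had 4.938 RPKM in WT and 11.62 RPKM in KO, and Hsd11b1, which regenerates active glucocorticoid, had 1.293 and 3.891 RPKM. Hsd17b3, which makes testosterone in Leydig cells, had 8.075 RPKM in WT and 0.05582 RPKM in KO. The KO level of Hsd17b3 was thus close to 0. Sult1e1, the oestrogen sulphotransferase, had 8.352 and 3.077 RPKM. Cyp19a1 (aromatase) had 1.38 and 0.03025 RPKM, and Shbg, a steroid-binding globulin, had 2.823 RPKM in WT and was listed at 0 in KO. Hsd11b1, Cyp19a1 and Shbg were named after their values were seen, to complete the counts. The Leydig cell markers moved in the same direction as Hsd17b3: Insl3 had 219.1 RPKM in WT and 1.468 RPKM in KO, and Cyp17a1 had 70.0 and 7.175 RPKM.

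Of 25 other nuclear receptors tested 0 were higher and 4 were lower, with a median of 0.11, and 2 were lower with a pseudocount of 5. Nr6a1, a germ cell receptor, had 23.84 RPKM in WT and 3.813 RPKM in KO, and Nr5a1, the steroidogenic factor of testis and adrenal, had 5.487 and 0.09744 RPKM. Nr1h3, an oxysterol receptor, had 5.144 and 1.833 RPKM. The last, Nr0b1, named after its values were seen, had 3.457 and 0.04002 RPKM. Among 8 membrane steroid receptors 3 were lower and 0 higher, with a median of -0.46. The progestin receptor genes Paqr5 (17.6 and 2.277 RPKM), Paqr8 (6.622 and 0.3573 RPKM) and Paqr9 (6.712 and 0.09344 RPKM) were those. Pgrmc1, a haem-binding membrane protein, had 259.6 RPKM in WT and 516.6 RPKM in KO, a difference of 0.99, so the list's summed level was higher in KO while its median was lower.

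Fkbp5 and Ddx17 were among the 3 pathway genes with levels most like those of Srd5a2 over the 2 libraries. Their Euclidean distances on log2(RPKM + 1) were 0.52 and 0.53. Ddx17, an RNA helicase and coactivator, had 87.72 RPKM in WT and 113.0 RPKM in KO.

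The small RNA libraries gave a separate view of the same mRNAs, as short reads whose listed match was the mRNA of one of the 7 genes. Such reads were rare. In caput at 13 months there were 46 in WT, or 3.33 RPM (reads per 1000000 classified reads; exact Poisson interval 2.44 to 4.44). In KO there were 19, or 1.03 RPM (0.623 to 1.62). The KO over WT ratio was 0.311 (0.172 to 0.541). Reads listed under any RefSeq mRNA were also lower in that KO library, from 15420 RPM (WT) to 3092 RPM (KO), a ratio of 0.201. The corpus libraries had 1.1 RPM (WT) and 1.08 RPM (KO). The cauda libraries had 1.4 RPM (WT) and 2.36 RPM (KO). The testis libraries were the highest, with 8.87 RPM in WT (6.99 to 11.1) and 7.83 RPM in KO (6.18 to 9.79). In caput at 2 months 0 reads were listed in either genotype. The exact Poisson interval for this allows up to 0.957 RPM in WT and 0.481 RPM in KO. Those 2-month files listed few reads under any mRNA, with 407 RPM (WT) and 412 RPM (KO).

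**Figure D5:**
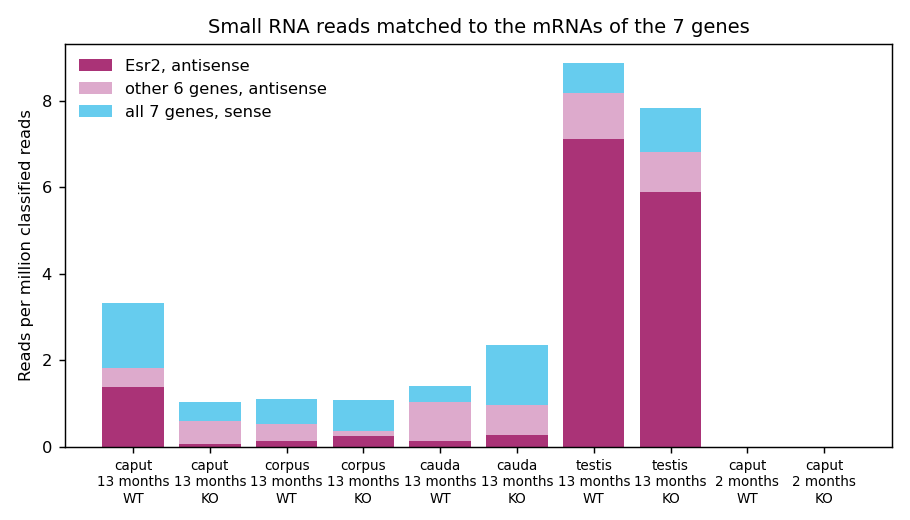
Small RNA reads listed under the mRNAs of the 7 genes, in RPM, for each of the 10 small RNA libraries, stacked as antisense reads of Esr2, antisense reads of the other 6 genes and sense reads. Testis reaches 8.87 RPM (WT) and 7.83 RPM (KO), mostly antisense to Esr2, and both 2-month caput libraries are at 0.

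Most of that testis signal, and much of that in WT caput, was listed under a single gene, Esr2, and on the strand opposite to the mRNA. Esr2 had 62 reads in WT testis and 61 in KO testis, of which 61 and 58 were antisense. In caput at 13 months it had 20 reads in WT, 19 of them antisense, and 1 in KO. Among the 19 antisense reads of WT caput, 16 had a length of 24 to 32 nt and T as the first base (a U in the RNA). This length range and first base are typical of piRNAs, small RNAs of the germ line. All 19 differed from the listed Esr2 mRNA by at least 1 mismatch. The 19 reads were 12 distinct sequences, of which 5 were also in WT testis. Without Esr2, the other 6 genes had 26 reads in WT caput and 18 in KO caput, a ratio of 0.521 (0.269 to 0.988). That interval, for a set chosen after seeing the data, lies above the ratio of 0.201 for reads of all mRNAs. The intervals for all 7 genes (0.172 to 0.541) and for their sense reads only (0.11 to 0.674) include 0.201. Of the 18 KO reads, 7 were a single antisense sequence listed under Nr3c1, described below, which had 1 read in WT caput.

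A pair of these antisense reads is shown because they recurred across libraries, with the first base in capitals.
Esr2 antisense read 1: Tgaaactgtaagccggccccaattaaatgt
Esr2 antisense read 2: Tggtgtgtctgaagacagcgacaatatact
Read 1, of 30 nt, had 8 reads in WT caput, 4 in WT testis and 7 in KO testis. Read 2, also of 30 nt, had 3 reads in WT testis and 5 in KO testis. The first 12 bases of read 1 opened many other reads listed under other entries. In WT testis 479 reads began with them, listed under 28 entries, and 41 of the 479 were listed under Esr2. In WT caput 156 reads began with them, 14 listed under Esr2, and in KO caput 2 reads did and 0 were listed under Esr2. Reads with this start were therefore mostly listed under entries other than Esr2. The starts of read 2 and of the other antisense reads were not examined in this way.

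The other members had few fragments. Srd5a2, the most abundant member as mRNA, had 2 reads in WT caput, 1 in KO caput, 1 in WT corpus and 0 in the other libraries. Srd5a1 had 1 read in WT caput and 0 in KO caput. At such counts no difference between libraries was detectable for these enzymes. Esr1 had 6 reads in WT caput and 3 in KO caput, Nr3c2 had 3 and 2, and Pgr had 2 and 2. Nr3c1 had 12 reads in WT caput and 10 in KO caput, 16 in each cauda library, and 16 in WT and 4 in KO corpus. Of the Nr3c1 reads, a single antisense sequence of 19 nt gave 32 reads over 6 libraries, 7 of them in KO caput and 14 in WT cauda. That sequence differed at 1 base from an 18 nt fragment listed as a tRNA, so its count may not be a measure of Nr3c1 mRNA.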

How the data were processed

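Transcriptomes of caput at 13 months (2 libraries) and small RNAs (10 libraries) were used, each from pooled tissue. The RPKM values per RefSeq transcript, the log2 fold changes, the GFOLD score and an empirical false discovery rate (E-FDR, a kind of q-value, 1 in all transcripts) are as deposited, made with gfold V1.1.3 per the file headers. The submitters' processing notes also list TopHat2, Bowtie 0.12.7 and mm9, with no roles given. Small RNA data were deposited as the read count of each distinct sequence, matched to database entries with up to 2 mismatches, per the file headers; counts changed to dates by a spreadsheet were read back for 5531 sequences in WT and 5419 in KO at 2 months. These files held 3855476 to 29049669 classified reads.

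The transcript with the highest mean RPKM stood for each gene, and differences were taken as log2(RPKM + 1). Whole reads were recovered by searching for the transcript length at which both RPKM values and the deposited log2 fold change gave whole counts, which succeeded for 24895 of 25831 transcripts (96.4%), with a single solution for all 8 member rows; the search was tested on simulated data. No count test was run, since no group had replicates. Scaling factors came from edgeR 4.0.16 (R 4.3.3), and the rest from Python 3.11.15 with numpy 2.4.6, pandas 2.3.3 and scipy 1.17.1. Promoters came from RefSeq (GRCm38.p6), in which 26876 of 28344 transcripts were found.

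The members and lists were chosen with earlier results of these data known. Named genes are the 7 members, Gpx5, up to 4 genes per pathway list by the size of the difference at 5 RPKM or more, the 2 highest per marker list, and the 3 nearest genes for each called member, and not every gene so chosen is reported here. Alternatives covered the pseudocount, the filter, the transcript chosen, scaling and centring, and for small RNAs the mismatches, strand and base. Centring on basal, clear and smooth muscle lists, leaving out Esr2 and counting reads by their first 12 bases were chosen after seeing the data.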

Additional observations from a re-analysis of the deposited data

How the results depend on the processing

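No paired analysis was possible because each group had 1 library. Of 84 values of the members under alternatives, 59 moved by less than their counting interval and 25 by more. Srd5a2, the called member, stayed above 0, but only by 0.01 with centring on the caput secretory genes, so little of its difference was left there. With centring, 15 of 25 values of the other 5 tested members were below 0. The 1 member called higher became 0 with centring on the caput secretory, basal cell, clear cell or smooth muscle and fibroblast genes, and 6 by the counting interval. Over all genes, 415 called higher became 8 with centring on the caput secretory genes, 5482 by the counting interval, 698 with a pseudocount of 0.1 and 190 with one of 5. The 3321 called lower became 7604 with that centring, 5469 by the interval and 2073 with a pseudocount of 5. In the pathway lists, 15 called higher became 0 with that centring and 72 by the interval, and 16 called lower became 49 with that centring, 34 by the interval and 9 with a pseudocount of 5. Of 220 counts within single lists, 179 stayed within 1.5 times and 41 did not. The ratio of small RNA fragments in caput, 0.311, ran from 0.222 with miRNA reads as the base to 0.521 without Esr2. Depth limits Pgr, at 9 and 5 reads, and single-gene fragment counts. The counting intervals are not a substitute for replicate pools.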
